A study of Mus musculus with 8 samples.

Results

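The histone acetylation machinery was examined in neural stem and progenitor cells (NSPCs) of the mouse cortex as a set of 33 genes fixed by name: the zinc-dependent histone deacetylases Hdac1 to Hdac11, the 7 sirtuins, 10 acetyltransferases, and 5 bromodomain proteins that bind acetylated histones or scaffold acetyltransferase complexes. Each symbol matched 1 row of the 55385 genes in the deposited table, and all 33 reached 1 TPM or more in all 8 libraries. TPM, the unit of that table, divides reads by transcript length before scaling, so levels can be set side by side between genes.

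The cells were sorted by flow cytometry from freshly dissociated cortex at postnatal day 7. The 4 iKO libraries came from mice with Nestin-CreERT2, Ash2l f/f and the tdTomato reporter, and the 4 WT libraries from mice with Nestin-CreERT2 and tdTomato. Both groups thus carried the Cre and the reporter. CreERT2 acts only once an oestrogen-receptor ligand such as tamoxifen is given, and the Nestin promoter limits it to cells that use that promoter. The design text calls the 4 libraries of a group biological replicates. How many animals stand behind a library, when Cre was induced and which gate was used were not given in the sources used here. The p-values therefore cover the spread among these libraries, part of which may be technical.

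Acetyl groups on histone lysines are added by acetyltransferases and removed by deacetylases, and they mark active promoters and enhancers. Of the class I deacetylases, HDAC1, HDAC2 and HDAC3 work inside large repressor complexes. Class IIa members shuttle between nucleus and cytoplasm, and sirtuins consume NAD. ASH2L is a subunit of the complexes that methylate lysine 4 of histone H3, a mark found beside acetylation at active promoters, many of them rich in CG dinucleotides.

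Ash2l itself measured 7.54, 6.11, 7.69 and 7.18 TPM in iKO replicates 1 to 4, against 18.1, 16.1, 19.2 and 17.2 TPM in the WT replicates, so every iKO library was lower. All 10 progenitor markers examined were expressed, with 2 higher and 4 lower in iKO, and summed to 3261 to 3341 TPM (iKO) against 3843 to 3929 (WT). Slc1a3 alone averaged 1241 TPM (iKO) against 2039 (WT), a fall larger than that of the sum. Of 8 neuroblast markers 6 were higher and 2 lower, with sums of 2255 to 2330 against 2161 to 2202 TPM. Of 7 mature neuron markers 6 were tested, with 2 higher and 3 lower and sums of 484 to 502 against 462 to 483 TPM. Slc17a7, a marker of excitatory neurons, was under 1 TPM throughout and was not tested, with means of 0.576 TPM (iKO) and 0.253 (WT). Camk2a, on the same list, averaged 37.7 TPM (iKO) against 11 (WT) and rose (log2 fold change 1.71). Of 6 pericyte markers 3 were higher and 3 lower, with sums of 953 to 1003 against 815 to 867 TPM. Of 5 oligodendrocyte markers 4 were tested, with 3 higher and 1 lower and sums of 208 to 224 against 185 to 195 TPM. The lower one was Cnp, the most abundant of them (66.7 against 98.9 TPM). Of the 5 oligodendrocyte precursor markers 0 were higher and 4 lower, while their sums overlapped, at 1609 to 1678 against 1649 to 1672 TPM. Most of that sum was Olig1, which averaged 1516 TPM (iKO) and 1492 (WT) and did not pass. The 8 endothelial markers summed to 783 to 842 TPM (iKO) against 448 to 463.5 (WT), and the 6 red blood cell markers to 720.1 to 840.1 against 69.8 to 81. The 8 microglial markers summed to 552 to 570.2 against 684 to 733, the 6 astrocyte markers to 2670 to 2801 against 3824 to 3928 (Agt alone averaged 62.8 against 726 TPM, and Aldh1l1 did not pass), and 4 Y-linked genes to 53.9 to 73.4 against 135 to 163 TPM. In bulk libraries, fewer cells of a type and less RNA per cell cannot be told apart. The part of these shifts in the results below was not tested.

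Of the 33 genes, 3 rose in iKO (Hdac9, Sirt7 and Hat1), 10 fell (Hdac1, Hdac3, Hdac4, Hdac10, Kat2a, Kat2b, Kat6a, Kat7, Kat8 and Brd2) and 20 did not pass the test. The test was limma on log2(TPM + 1), with Benjamini-Hochberg adjustment over all 16413 genes tested and a threshold of 0.05. Among all genes tested 20.7% rose, 31.9% fell and 52.6% did either, so the 39.4% called here lay below that background. The groups did not overlap for 11 of the 33 genes (33.3%), 3 with iKO above WT and 8 below, against 49.2% of all genes tested. The median log2 fold change was -0.03 for the 33 genes and -0.06 over all genes tested, and the median absolute value was 0.11 for the 33 genes and 0.22 over all genes tested. Changes were small in most members: 29 of the 33 differed by less than 0.3. Hdac1, Hdac10 and Kat2b were the 3 members at 0.5 or more, a size seen in 18.6% of all genes tested.

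**Figure D1:**
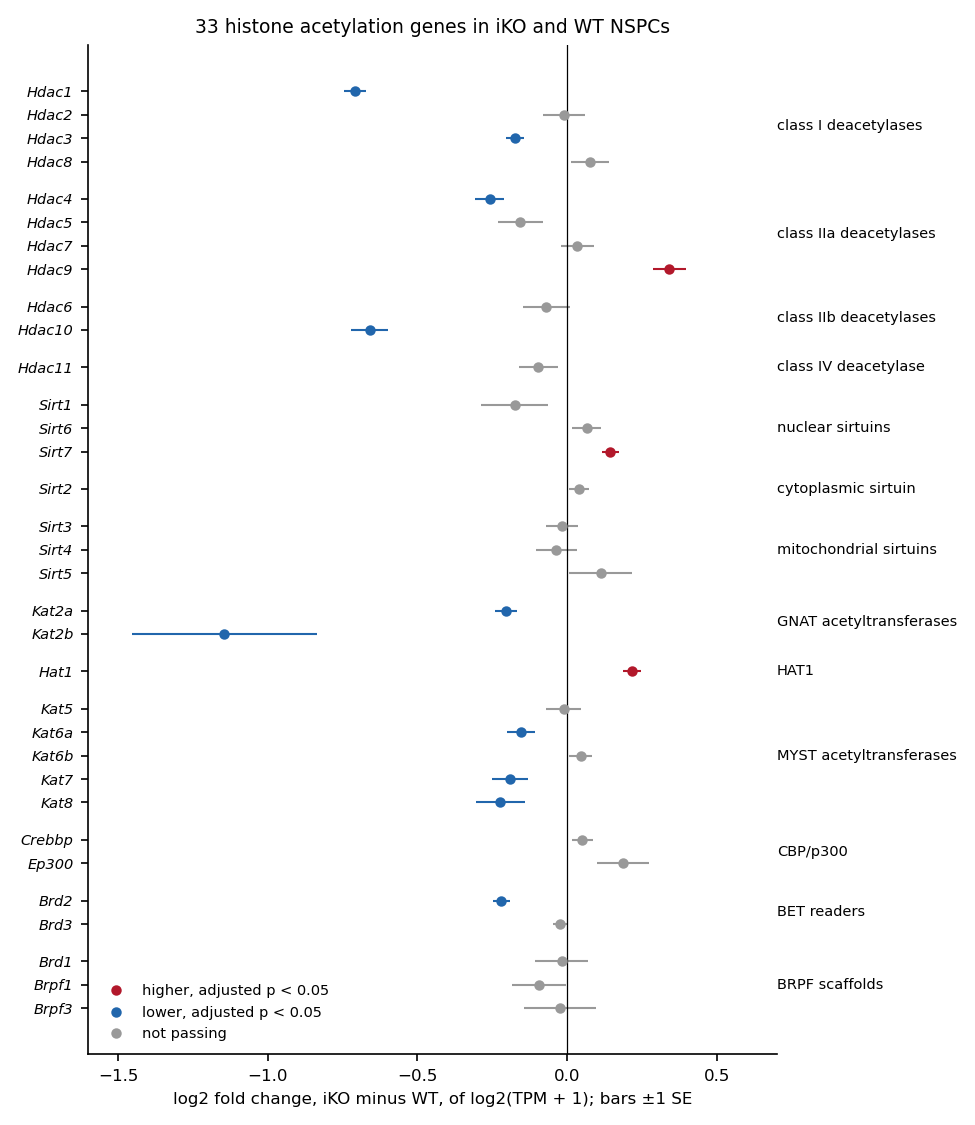
Log2 fold change (x axis, iKO minus WT, of log2(TPM + 1)) of each of the 33 genes (y axis), grouped by role; bars are 1 SE on each side, and colour marks the call at an adjusted p under 0.05. Kat2b, Hdac1 and Hdac10 lie below -0.5, while 29 genes lie within 0.3 of zero.

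How many members rose depended on the scaling. With trimmed mean of M values factors 8 rose and 7 fell (26.5% and 25.3% of all genes tested), and with quantile normalization 6 rose and 9 fell (25.4% and 25.8%). Genes that rose made up 39.3% of all called genes on TPM as deposited, 51.1% with trimmed mean factors and 49.7% after quantile normalization. The authors' deposited table, whose headings are those DESeq2 writes, held 12 members higher and 8 lower at an adjusted p under 0.05. Of its 29420 rows with a p-value, 17.1% were higher and 16.7% lower. Those rows outnumber the 16413 genes tested on TPM and include lower genes, so these shares are not a like background for the members. Under all 4 settings, the deposited comparison included, the same 9 members were called: Hdac9, Sirt7 and Hat1 higher, and Hdac1, Hdac3, Hdac4, Hdac10, Kat2a and Kat2b lower. Signs were the same in TPM and in the authors' deposited table for 25 of the 33; both come from the same libraries.

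A score of Y-linked genes against Xist also separated the groups, running from -0.82 to -0.26 among iKO libraries and from 0.565 to 1.01 among WT libraries. With that score as a covariate, limma called 0 members higher and 1 lower (0 and 1 at an unadjusted p under 0.05). The member that passed was Hdac1 (log2 fold change -0.77, adjusted p = 0.0456). Of the 13 called members 12 kept their sign and 5 had a fold change at least as large as without the score, such as Hdac4 (-0.32) and Kat2b (-1.74), while the SEs of the 13 were 3.21 to 4.14 times as large. Score and genotype split the libraries alike, so the 2 cannot be told apart for any member, Hdac1 included.

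Promoter sequences are shown for 5 members because their CG content, the feature named above, ran from none to above the median of the windows found. RefSeq start sites on GRCm38.p6 gave 41 windows of 250 bases for 29 members, and windows of Hdac1, Hdac3, Hdac10 and Kat6a were not used here. The windows are those of Hdac9 (chr12:34917096-34917345, minus strand) and Hat1 (chr2:71389010-71389259, plus strand), which rose, of Kat2b (chr17:53566721-53566970, plus strand) and Kat2a (chr11:100712468-100712717, minus strand), which fell, and of Hdac2 (chr10:36974294-36974543, plus strand), which did not pass. Each is printed 5′ to 3′ on the gene's strand, ends at the base before the start site and has its CG dinucleotides in capitals. The most upstream window is shown where a gene has several.
Hdac9: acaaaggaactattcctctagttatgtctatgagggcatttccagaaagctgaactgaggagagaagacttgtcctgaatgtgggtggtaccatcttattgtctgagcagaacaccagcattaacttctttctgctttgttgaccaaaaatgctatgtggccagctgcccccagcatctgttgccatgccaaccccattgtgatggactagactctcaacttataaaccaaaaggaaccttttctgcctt
Kat2b: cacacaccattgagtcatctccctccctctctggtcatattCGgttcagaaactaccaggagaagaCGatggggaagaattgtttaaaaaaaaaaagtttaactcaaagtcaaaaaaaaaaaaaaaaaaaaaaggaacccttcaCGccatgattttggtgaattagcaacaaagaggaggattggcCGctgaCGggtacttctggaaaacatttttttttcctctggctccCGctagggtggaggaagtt
Kat2a: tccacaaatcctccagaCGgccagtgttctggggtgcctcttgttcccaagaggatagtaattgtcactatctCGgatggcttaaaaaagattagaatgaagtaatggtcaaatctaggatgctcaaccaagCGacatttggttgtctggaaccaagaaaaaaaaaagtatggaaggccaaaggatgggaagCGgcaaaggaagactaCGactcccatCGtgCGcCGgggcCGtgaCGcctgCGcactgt
Hat1: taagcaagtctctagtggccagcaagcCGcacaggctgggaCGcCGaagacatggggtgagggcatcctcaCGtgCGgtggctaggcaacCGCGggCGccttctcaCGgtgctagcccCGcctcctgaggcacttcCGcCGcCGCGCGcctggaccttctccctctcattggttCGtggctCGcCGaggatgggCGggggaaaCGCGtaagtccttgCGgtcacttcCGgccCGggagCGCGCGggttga
Hdac2: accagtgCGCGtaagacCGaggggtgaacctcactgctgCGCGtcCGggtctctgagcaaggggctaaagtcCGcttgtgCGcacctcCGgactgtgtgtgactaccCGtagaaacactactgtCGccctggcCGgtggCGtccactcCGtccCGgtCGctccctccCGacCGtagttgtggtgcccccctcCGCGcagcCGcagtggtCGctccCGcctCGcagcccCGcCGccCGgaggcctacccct

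This Hdac9 window held 0 CG dinucleotides and the gene's other window held 2. Kat2b had 6 and 5 in its windows and Kat2a had 11, while Hat1 and Hdac2 had 27 each. Over the 27 windows of the 20 members that did not pass, the median was 20 (5 to 44). It was 10.5 (5 to 27) over 10 windows of 6 members that fell, and 7 (0 to 27) over 4 windows of the 3 that rose. Hdac1, Hdac3, Hdac10 and Kat6a, which had no window, all fell, so only the group that fell is incomplete. A gene with several windows counts once for each. The medians are therefore not a comparison of members by call. All 32851 windows of the RefSeq table had a median of 6. They belong to 27025 genes, more than the 16413 tested here, and so include genes too low to be tested, unlike the members. At least 10 CG dinucleotides were present in 32 of the 41 member windows and in 37.8% of all windows. Read on both strands, GGGCGG, a binding motif of Sp1, was present in 25 (61%, against 32.7% of all). CCAAT was present in 14 (34.1%, against 33.8% of all), CCGGAAG, an ETS motif, in 5 (12.2%, against 6.91% of all), TATAAA in 2 (4.88%, against 12.4% of all), and TGACGTCA, the cyclic AMP response element, in 0 (against 1.55% of all). Some windows of a gene overlap, and these values describe the windows with no test.

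Among class I deacetylases Hdac1 fell and Hdac2 did not pass. HDAC1 and HDAC2 are close relatives that serve as catalytic subunits of the NuRD, SIN3 and CoREST complexes. Hdac1 (ENSMUSG00000028800.15) measured 67.55, 66, 60.2 and 63.2 TPM across the iKO libraries and 105, 106, 106 and 104 across WT. The lowest WT library was far above the highest iKO library, and the iKO mean was 60.9% of the WT mean (log2 fold change -0.71, SE 0.0369, adjusted p = 9.19e-07). Without any single library the fold change was -0.73 to -0.68, and the authors' deposited table gave -0.72. Hdac2 measured 58.5, 60.3, 52.9 and 55.1 TPM across the iKO libraries and 57.7, 50.5, 63.55 and 57 across WT, with the groups on top of each other (log2 fold change -0.01, SE 0.0692, adjusted p = 0.9155).

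The ratio of Hdac1 to Hdac2, which does not depend on how a library is scaled, was 1.155, 1.095, 1.14 and 1.15 in iKO and 1.82, 2.1, 1.67 and 1.83 in WT. The ranges did not overlap (difference of log2 ratios -0.71, two-sided exact permutation p = 0.0286, the smallest that 4 against 4 libraries allow, and 0.0457 after adjustment over 8 paralog pairs). Hdac1 made up 38.5% ± 0.7035 of the summed class I TPM in WT and 28.6% ± 0.571 in iKO (SD, n = 4). The class I sum was 274.5 ± 4.73 TPM for WT and 224.5 ± 7.665 TPM for iKO (SD, n = 4). Near-identical copies of Hdac1, Gm10093 and AC125456.1, averaged 0.0834 TPM or less in either group.

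Hdac3, the catalytic subunit of the NCoR/SMRT complexes, fell by less. It measured 74.5, 72.3, 74.85 and 78.5 TPM across the iKO libraries and 83.3, 85.8, 84.8 and 84.9 across WT, with no overlap (log2 fold change -0.17, SE 0.0298, adjusted p = 0.00118). Hdac8, which deacetylates the cohesin subunit SMC3, ranged over 25.9 to 31.5 TPM in iKO and 25.9 to 29.2 in WT and did not pass (adjusted p = 0.339). The authors' deposited table gave Hdac8 0.18, with an adjusted p of 0.018.

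**Figure D2:**
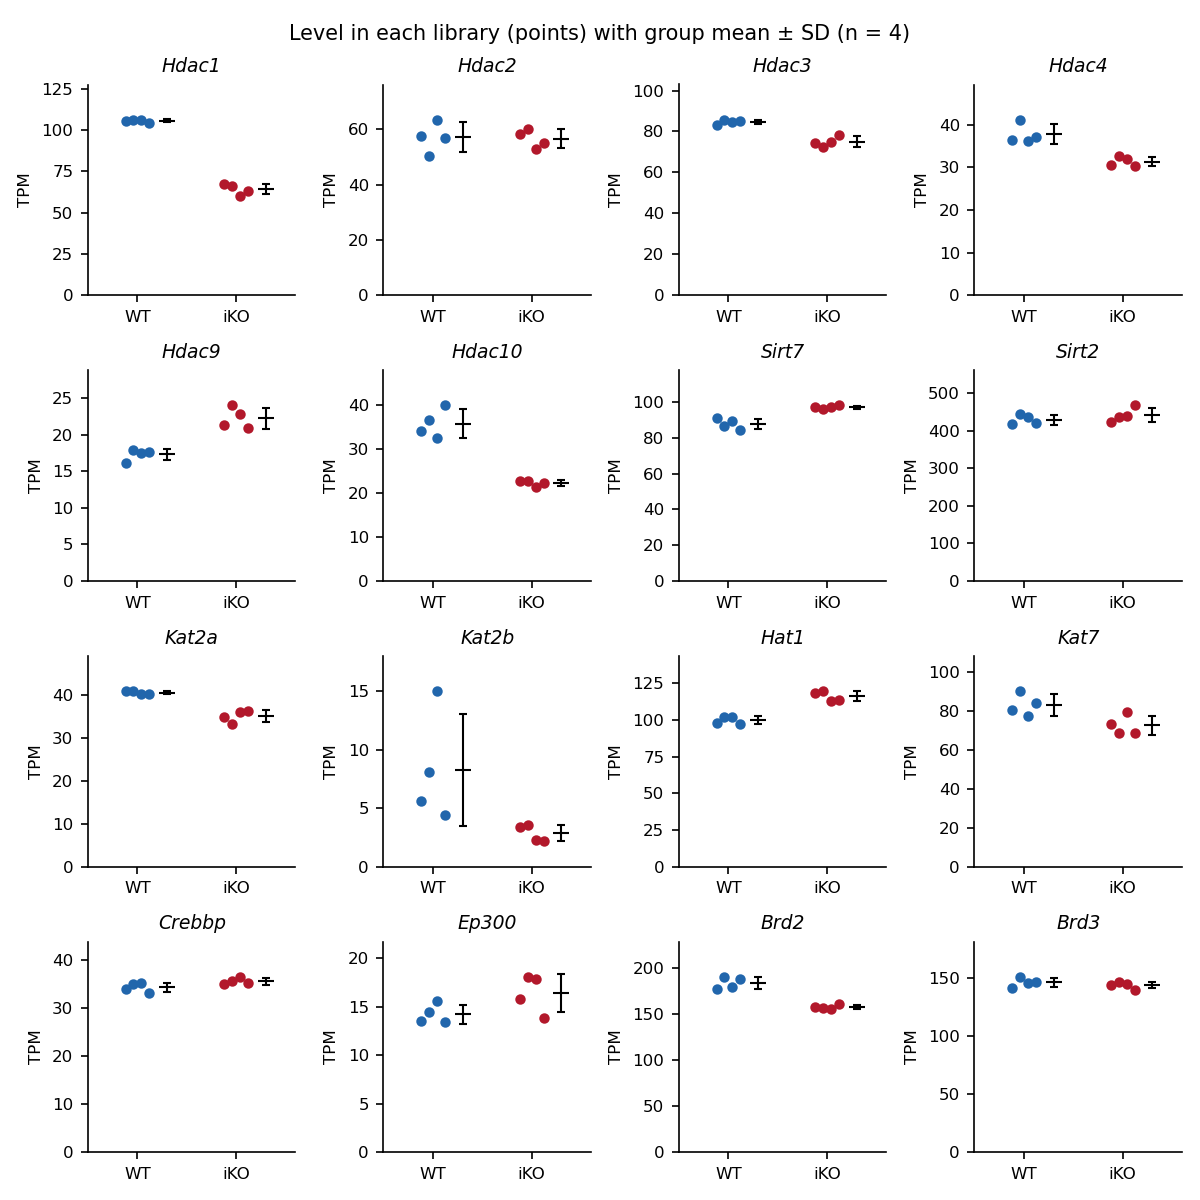
Level in TPM (y axes, from 0) of selected genes of the set in each WT and iKO library (points), with the group mean and SD (n = 4). Hdac1 and Hdac10 show wide gaps between the groups, the groups overlap for Hdac2, and 1 WT library of Kat2b stands at 15 TPM.

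Class IIa deacetylases, which bind MEF2 transcription factors and have little catalytic activity of their own, went both ways. Hdac9 rose: it measured 21.3, 24, 22.8 and 20.9 TPM across the iKO libraries and 16.2, 17.9, 17.55 and 17.7 across WT, again without overlap (log2 fold change 0.34, SE 0.0558, adjusted p = 0.000877). Hdac4 fell, with 36.5, 41.25, 36.3 and 37.1 TPM across WT and 30.5, 32.7, 32 and 30.4 across the iKO libraries (log2 fold change -0.26, SE 0.0495, adjusted p = 0.00219). All 4 iKO libraries lay below the lowest WT library of Hdac4. Exons of Hdac4 share 3536 bases with Gm26720 on the opposite strand, for which no TPM was found. The part of this overlap in the values of Hdac4 was not tested. Hdac5 averaged 46.1 ± 4.21 TPM (iKO) and 51.4 ± 4.31 (WT; SD, n = 4) and did not pass in limma (adjusted p = 0.114), and neither did Hdac7, at 17.8 to 19.9 and 17.75 to 20.2 TPM (adjusted p = 0.6315). The authors' deposited table called Hdac5 lower (log2 fold change -0.09, adjusted p = 0.0467) and Hdac7 higher (0.18, adjusted p = 0.0221). HDAC7 is best known from endothelial cells, and 7 of the 8 endothelial markers were higher in iKO. Whether this bears on Hdac7 was not tested.

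The summed class IIa level was 119 ± 5.66 TPM for iKO and 125 ± 4.66 for WT (SD, n = 4), and its ranges overlapped. Hdac9 held 18 to 19.6% of it in iKO and 13.5 to 14.3% in WT. The ratio of Hdac7 to Hdac9 was 0.821 to 0.953 in iKO and 1.01 to 1.13 in WT (exact permutation p = 0.0286, adjusted 0.0457). The ratio of Hdac4 to Hdac5 overlapped between the groups (exact permutation p = 0.4).

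Of the class IIb enzymes, Hdac10 fell and Hdac6 did not pass. Hdac10, a polyamine deacetylase, measured 22.7, 22.7, 21.2 and 22.2 TPM across the iKO libraries and 33.9, 36.6, 32.5 and 39.8 across WT. The iKO libraries were tightly grouped below every WT library, at 62.1% of the WT mean (log2 fold change -0.66, SE 0.0627, adjusted p = 3.28e-05). A close value, -0.62, stood in the authors' deposited table. Hdac6, the main tubulin deacetylase, ranged over 44.6 to 51.9 TPM in iKO and 43.8 to 55.75 in WT (adjusted p = 0.485). Hdac11, the single class IV enzyme, ranged over 6.16 to 6.82 and 6.4 to 7.41 TPM (adjusted p = 0.247). Its values are uncertain, because the transcript Gm44002 (7.06 and 8.85 TPM) shares 594 exonic bases on the opposite strand and the strand setting of the counting was not given.

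Of the 7 sirtuins 1 passed in limma on TPM as deposited. Sirt7, a nucleolar deacetylase, rose: it measured 97.1, 95.8, 97 and 98.1 TPM across the iKO libraries and 90.9, 86.6, 89.2 and 84.1 across WT, a small shift without overlap (log2 fold change 0.14, SE 0.029, adjusted p = 0.0028). Sirt2, a mainly cytoplasmic enzyme abundant in oligodendrocytes, had the highest level of the 33 genes, 442 ± 18.75 TPM (iKO) and 429.8 ± 13.1 (WT; SD, n = 4), and did not pass in limma (adjusted p = 0.34). The authors' deposited table called Sirt2 higher (log2 fold change 0.17). Sirt2 alone held 66.4 to 68.45% of the summed sirtuin TPM in iKO and 66.9 to 67.9% in WT. Sirt1, a nuclear deacetylase and the least abundant member, ranged over 2.95 to 3.92 and 3.44 to 4.84 TPM (adjusted p = 0.221), and Sirt6, which acts at chromatin and telomeres, over 19.7 to 20.7 and 18.35 to 20.9 TPM (adjusted p = 0.288). With trimmed mean factors limma also called Sirt2 (0.11, adjusted p = 0.0157) and Sirt6 (0.13, adjusted p = 0.04715) higher. Neither passed in limma after quantile normalization (adjusted p = 0.951 and 0.0529).

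For the mitochondrial sirtuins Sirt3, Sirt4 and Sirt5, limma called 0 higher and 0 lower, also at an unadjusted p under 0.05, and the authors' deposited table called Sirt5 higher (log2 fold change 0.23). Their iKO and WT means were 25 and 25.35 TPM for Sirt3, 52.9 and 54.3 for Sirt4, and 19.7 and 18.3 for Sirt5. Exons of Sirt3 overlap Ric8a and Psmd13 on the opposite strand, which averaged 44.4 TPM or more. Sirt7 shares 124 exonic bases with Mafg on the same strand (18.6 TPM in iKO, 21.25 in WT).

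Both GNAT acetyltransferases fell. KAT2A (GCN5) and KAT2B (PCAF) are alternative catalytic subunits of the SAGA and ATAC coactivators and acetylate histone H3. Kat2a measured 34.95, 33.1, 36 and 36.1 TPM across the iKO libraries and 40.85, 40.9, 40.1 and 40.25 across WT, with the WT libraries close together and all above iKO (log2 fold change -0.20, SE 0.0362, adjusted p = 0.00144). Kat2b measured 3.42, 3.56, 2.31 and 2.23 TPM across the iKO libraries and 5.59, 8.07, 15 and 4.38 across WT. The groups did not overlap and the fold change exceeded that of the other 32 members (log2 fold change -1.14, SE 0.31, adjusted p = 0.01295), but WT libraries spread widely: it was -0.84 without WT replicate 3 (adjusted p = 0.0105) and -1.36 without WT replicate 4. The authors' deposited table gave -0.41 for Kat2b (adjusted p = 0.00256).

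The ratio of Kat2a to Kat2b was 9.3 to 16.2 in iKO and 2.67 to 9.185 in WT (exact permutation p = 0.0286, adjusted 0.0457). That call was lost when 1 TPM was added to both levels (exact permutation p = 0.0571). HAT1, which acetylates newly made histone H4 before it enters chromatin, went the other way. Hat1 measured 119, 119.6, 113 and 113 TPM across the iKO libraries and 97.9, 102, 102 and 97.2 across WT, all iKO libraries above all WT libraries (log2 fold change 0.22, SE 0.0299, adjusted p = 0.000319). It held 27.4% ± 0.867 of the summed TPM of the 10 acetyltransferases in iKO and 23.25% ± 0.509 in WT (SD, n = 4). Their sum was 424 ± 11.8 TPM (iKO) and 429 ± 8.39 (WT), and without Hat1 308 ± 10.9 and 329 ± 7.27 TPM (SD, n = 4).

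In the MYST family 3 of 5 genes fell, each by little. Kat6a, the gene of MOZ, measured 9.37, 8.72, 8.92 and 8.74 TPM across the iKO libraries and 10.3, 10, 9.98 and 9.93 across WT, with no overlap but a small gap (log2 fold change -0.15, SE 0.0464, adjusted p = 0.0206). Kat7, the gene of HBO1, measured 73.2, 68.9, 79.5 and 69 TPM and 80.4, 90.3, 77.25 and 84.3 TPM in the same order (log2 fold change -0.19, adjusted p = 0.0252). Kat8, the gene of MOF, which acetylates lysine 16 of histone H4, measured 15.1, 15.6, 18.8 and 15.8 TPM and 19.3, 21, 19.3 and 17.1 TPM (log2 fold change -0.22, adjusted p = 0.0448). Groups overlapped for Kat7 and for Kat8. The authors' deposited table gave Kat7 a log2 fold change of -0.0022 (adjusted p = 0.969). It called Kat8 lower (-0.26, adjusted p = 0.0237) and did not call Kat6a (-0.09, adjusted p = 0.0968). After quantile normalization limma called Kat7 lower (-0.18, adjusted p = 0.037), while Kat6a and Kat8 did not pass (adjusted p = 0.457 and 0.14). With trimmed mean factors the calls of Kat6a, Kat7 and Kat8 were lost, at -0.09, -0.12 and -0.16 (adjusted p = 0.134, 0.115 and 0.1335). They were lost too without single libraries, at adjusted p of 0.05325 to 0.11: Kat6a without iKO replicate 2 or 4, Kat7 without replicate 2 or 4 of either group, and Kat8 without any one library other than iKO replicate 3 or WT replicate 4.

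Kat6b, the paralog of Kat6a, averaged 31.2 ± 1.03 TPM (iKO) and 30.2 ± 0.87 (WT; SD, n = 4) and did not pass in limma on TPM as deposited (adjusted p = 0.35). It was called higher with trimmed mean factors (0.11, adjusted p = 0.0317), after quantile normalization (0.11, adjusted p = 0.0355) and in the authors' deposited table (0.11, adjusted p = 0.00334). The ratio of Kat6a to Kat6b was 0.272 to 0.292 in iKO and 0.319 to 0.351 in WT (exact permutation p = 0.0286, adjusted 0.0457). Kat5, the gene of TIP60, ranged over 82.5 to 93.8 TPM and 79.8 to 95 TPM (log2 fold change -0.01, adjusted p = 0.882), while the authors' deposited table gave 0.18 with an adjusted p of 0.0002125. Exons of Kat5 share 426 bases with Rnaseh2c on the opposite strand, which averaged 82.8 TPM (iKO) and 47.9 (WT). The part of this overlap in the values of Kat5 was not tested.

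For CBP and p300, acetyltransferases of histone H3 lysine 27 at enhancers, limma on TPM as deposited called 0 of 2 in either direction, also at an unadjusted p under 0.05. Crebbp measured 34.8, 35.6, 36.4 and 35.2 TPM across the iKO libraries and 33.9, 34.9, 35.1 and 33 across WT (log2 fold change 0.05, adjusted p = 0.239), and the authors' deposited table called it higher (log2 fold change 0.12), as did limma with trimmed mean factors (0.12, adjusted p = 0.0135) and after quantile normalization (0.10, adjusted p = 0.0271). Ep300 measured 15.8, 18.05, 17.85 and 13.8 TPM across the iKO libraries and 13.5, 14.4, 15.5 and 13.4 across WT, with overlap (log2 fold change 0.19, SE 0.0879, adjusted p = 0.104). Trimmed mean factors called Ep300 higher (0.25, adjusted p = 0.0366), as did quantile normalization, while the authors' deposited table gave -0.01.

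**Figure D3:**
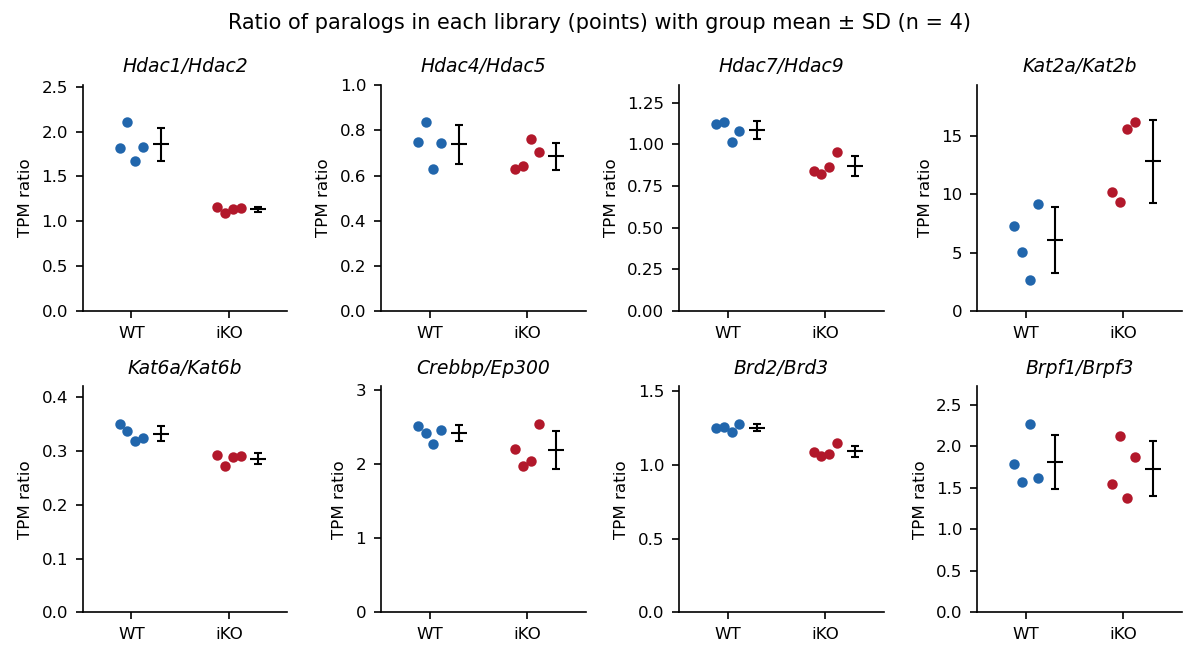
TPM ratio of 8 pairs of related genes (y axes, from 0) in each WT and iKO library (points), with group mean and SD (n = 4). The ratios of Hdac1/Hdac2, Hdac7/Hdac9, Kat2a/Kat2b, Kat6a/Kat6b and Brd2/Brd3 do not overlap between the groups, and those of Hdac4/Hdac5, Crebbp/Ep300 and Brpf1/Brpf3 do.

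BRD2 and BRD3 are BET proteins, whose paired bromodomains bind acetylated histone H4. Brd2, the most abundant member after Sirt2, measured 157, 156, 156 and 161 TPM across the iKO libraries and 177.5, 190.2, 179 and 188 across WT, a fall without overlap (log2 fold change -0.22, SE 0.0274, adjusted p = 0.000177). An opposite direction stood in the authors' deposited table, 0.14 with an adjusted p of 9.14e-11, so the direction of Brd2 depends on the table. Brd2 shares 360 exonic bases with H2-DMa on the opposite strand, which averaged 25.55 TPM (iKO) and 24.7 (WT). Brd3 ranged over 140.1 to 147 and 142 to 151 TPM and did not pass in limma (log2 fold change -0.02, adjusted p = 0.493). It was called higher, at 0.08, in the authors' deposited table and lower, at -0.08, after quantile normalization. The ratio of Brd2 to Brd3 was 1.06 to 1.15 in iKO and 1.23 to 1.28 in WT (exact permutation p = 0.0286, adjusted 0.0457). The direction of that ratio also depends on the table, since the authors' deposited table gave Brd2 the larger rise.

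Brd1, Brpf1 and Brpf3 encode scaffolds of the KAT6 and KAT7 complexes, and 0 of the 3 were called by limma (0 also at an unadjusted p under 0.05) or in the authors' deposited table. Brd1 ranged over 15.35 to 16.4 TPM in iKO and 13.5 to 18.8 in WT, Brpf1 over 8.535 to 10.1 and 9.16 to 11.9 TPM, and Brpf3 over 4.71 to 7.03 and 5.11 to 6.87 TPM. The ratio of Brpf1 to Brpf3 overlapped between the groups (exact permutation p = 0.714), as did that of Crebbp to Ep300 (exact permutation p = 0.2).

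**Figure D4:**
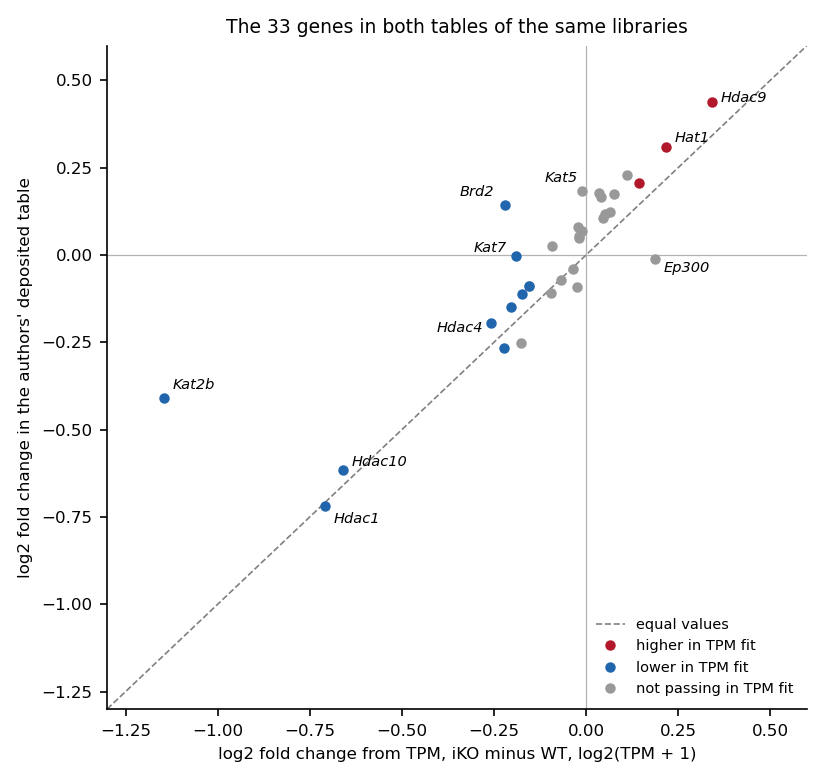
Log2 fold change of the 33 genes from TPM (x axis, iKO minus WT of log2(TPM + 1)) and in the authors' deposited table (y axis); the dashed line marks equal values and colour marks the call from TPM. Hdac1 and Hdac10 lie close to the line, Kat2b lies above it at -1.14 and -0.41, and Brd2 has opposite signs.

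Partner subunits, other readers and cofactor enzymes were followed in 12 lists of 138 genes, of which 136 were tested: 29 rose, 41 fell and 66 did not pass, so 51.5% were called, close to the 52.6% of all genes tested (20.7% higher and 31.9% lower), against which the counts of each list below are to be read. Their median log2 fold change was -0.03, against -0.06 for all genes tested. With trimmed mean factors 44 rose and 36 fell (26.5% and 25.3% of all genes tested). The authors' deposited table held 50 of the 138 higher and 29 lower (17.1% and 16.7% of its wider set of rows). Genes were called in both directions in every list but the MSL and NSL complexes.

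Complexes that hold HDAC1 and HDAC2 had members in both directions. NuRD had 2 of 11 higher and 4 lower: Mta2 averaged 143 ± 5.2 TPM (iKO) against 173 ± 5.32 (WT), and the remodelling ATPase gene Chd4 53 ± 2.78 against 63.6 ± 1.42, both falling. Mbd3, another NuRD subunit gene, rose, with 81.5 ± 2.5 against 68.7 ± 1.71 TPM (SD, n = 4). SIN3 had 2 of 14 higher and 3 lower. Its subunit gene Sap18 rose, at 254.5, 247, 242 and 224 TPM across the iKO libraries and 98.5, 107.5, 103 and 120.3 across WT (log2 fold change 1.17, adjusted p = 1.12e-06), the highest value in the 12 lists on this scale. The authors' deposited table gave Sap18 0.65, below Supt3 (0.93) and Acss2 (0.73). The scaffold gene Sin3a fell, averaging 29.2 ± 2.655 against 40.1 ± 2.22 TPM (SD, n = 4; log2 fold change -0.45), where the authors' deposited table gave -0.05 with an adjusted p of 0.382. Arid4b, which also belongs to SIN3, fell to 99.6 TPM in iKO, with 125 in WT.

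CoREST had 3 of 9 higher and 4 lower, with Hmg20b rising (mean 117 TPM for iKO, 95.1 for WT). NCoR/SMRT, the complexes of HDAC3, had 1 of 5 higher and 2 lower. The corepressor gene Ncor1 fell (mean 96.8 TPM for iKO, 108.5 for WT; log2 fold change -0.16) but was higher, at 0.08, in the authors' deposited table. Tbl1x fell (59.3 and 66.4 TPM) and Gps2 rose (20.3 and 14.4 TPM). The class IIa partners had 1 of 9 higher and 2 lower: the kinase genes Camk2d (38.8 and 53.5 TPM) and Prkd1 (3.76 and 6.58 TPM) fell.

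On the acetyltransferase side, SAGA and ATAC subunits had 5 of 20 higher and 4 lower. Trrap, the large scaffold shared by SAGA and TIP60, fell, averaging 104 ± 4.24 against 144.5 ± 7.55 TPM (SD, n = 4; log2 fold change -0.47, adjusted p = 2.76e-05). Atxn7 fell (mean 3.44 TPM for iKO, 5.41 for WT) and Supt3 rose (3.81 and 2 TPM). TIP60 had 2 of 14 higher and 3 lower, with Brd8 falling (80.9 and 95.95 TPM) and Ruvbl2 rising (113 and 92.1 TPM). The MOZ, MORF and HBO1 list had 2 of 5 higher and 1 lower. Meaf6, a subunit these complexes share with TIP60, rose, at 159.9, 165, 159.8 and 161 TPM across the iKO libraries and 114, 117, 112 and 118 across WT (log2 fold change 0.48, adjusted p = 6.78e-07). The MSL and NSL complexes of KAT8 had 0 of 9 higher and 5 lower by limma (0 and 5 at an unadjusted p under 0.05), and 1 higher and 3 lower in the authors' deposited table. Kansl3 fell, averaging 49.3 ± 0.524 against 57.8 ± 0.219 TPM (SD, n = 4), as did Hcfc1, with 24 against 28.2 TPM.

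**Figure D5:**
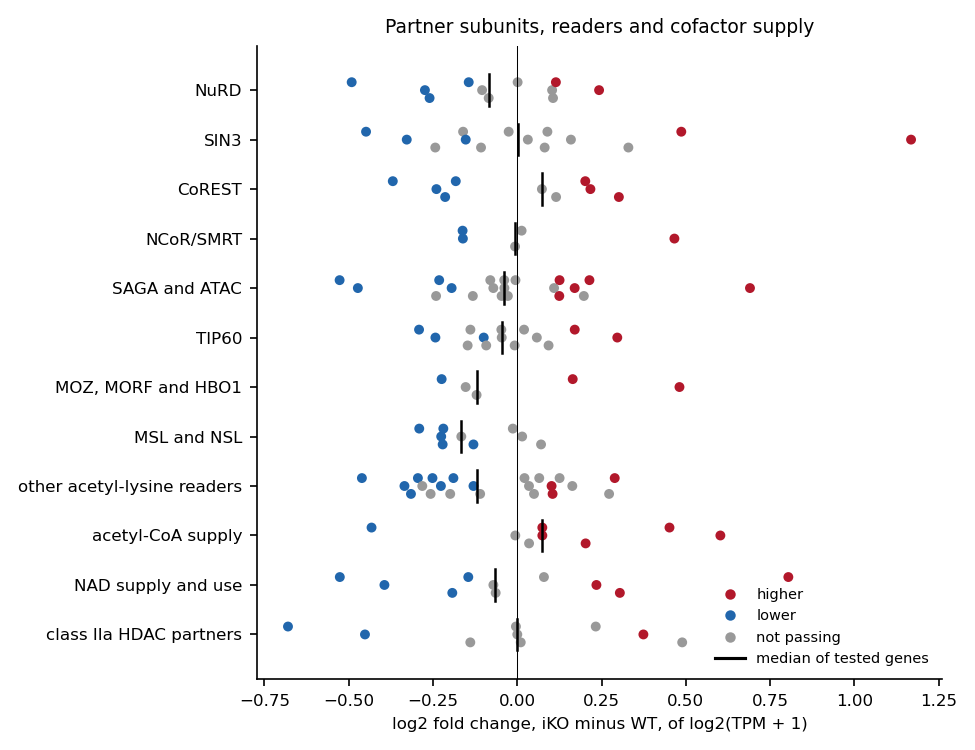
Log2 fold change (x axis, iKO minus WT of log2(TPM + 1)) of each tested gene of the 12 partner lists (y axis); colour marks the call and the vertical bar the median of each list. Sap18 in SIN3 lies farthest to the right, and MSL and NSL hold 5 lower and 0 higher genes.

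The list of other known or putative readers of acetylated lysine had 3 of 22 higher and 8 lower. Zmynd8 fell (mean 29.95 TPM for iKO, 41.5 for WT), as did Phip (85.9 and 101 TPM) and Dpf2, a subunit gene of BAF remodellers (168 and 184 TPM). Genes that supply acetyl-CoA, the donor of the acetyl group, had 5 of 8 higher and 1 lower. Acss2, the nuclear and cytosolic acetyl-CoA synthetase gene, rose, averaging 59.5 ± 4.13 against 38.8 ± 2.17 TPM, and Slc25a1, the mitochondrial citrate carrier gene, 91.1 ± 1.255 against 79 ± 0.768 TPM. The mitochondrial synthetase gene Acss1 fell, with 84.2 ± 1.565 against 114 ± 4.11 TPM (SD, n = 4). The authors' deposited table gave the same directions for Acss2, Slc25a1 and Acss1, at 0.73, 0.28 and -0.32. Genes that make or use NAD, the cofactor of sirtuins, had 3 of 10 higher and 4 lower. Nmnat2 rose (mean 47.8 TPM for iKO, 27 for WT; log2 fold change 0.80, against 0.23 in the authors' deposited table), and Parp2 (95.9 and 139 TPM) and Nadk (114 and 126.5 TPM) fell.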

How the data were processed

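Per the labels' protocols, RNA of sorted NSPCs was amplified by Smart-Seq2 and sequenced as paired ends. The authors deposited TPM for 55385 genes in 8 libraries, each column summing to 1000000. Aligner, quantifier and build were not given in the sources used here. TPM keep no depth, so depth is unknown. Per the file headers, the authors' deposited comparison holds a mean normalized signal, a log2 fold change and its error, the test's score, and p-values before and after adjustment (the adjusted p is 1 in 30307 rows).

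limma 3.58.1 in R 4.3.3 was run on log2(TPM + 1), with trend and robust moderation, over genes at 1 TPM or more in at least 4 libraries. Fold changes are on that scale, which understates changes of low genes. Exact permutation tests of log2 ratios enumerated all 70 assignments of libraries. Trimmed mean factors were computed on TPM without weights. The fit was tested on simulated data with independent noise and few changed genes. Such data cannot show effects of scaling or of the sex score. Copies (95% identity over 50% of the shorter transcript, blastn 2.17.0) and overlaps came from GENCODE M21, which may differ from the authors' annotation.

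Members and lists were chosen with earlier results of these data known. Names could be any member, Ash2l, Xist and Ddx3y, up to 3 genes of smallest unadjusted p per partner list and the most abundant gene per marker list; some are not reported here. Slc17a7, Camk2a, Gm10093, AC125456.1, Gm44002, Gm26720, Ric8a, Psmd13, Mafg, Rnaseh2c, H2-DMa, Agt and Aldh1l1 were named after their values were seen.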

Additional observations from a re-analysis of the deposited data

Results flagged for a closer look

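In 8 of 156 groups of 4 values 1 library stood far from the other 3, a gap that chance alone gives in about 1 of 20 groups. Hdac4 stood at 41.25 TPM in WT replicate 2 (36.3 to 37.1 TPM in the other 3), Hdac5 stood at 57.85 TPM in WT replicate 3 (48.6 to 49.9 TPM in the other 3), and Hdac7 stood at 17.8 TPM in iKO replicate 1 (19.7 to 19.9 TPM in the other 3). The ratio of Kat6a to Kat6b was 0.272 in iKO replicate 2 (0.289 to 0.292 in the other 3). Among partner genes, Chd4 stood at 57.1 TPM in iKO replicate 2 (51.1 to 52 TPM in the other 3), Gse1 stood at 27.7 TPM in WT replicate 3 (26.4 to 26.5 TPM in the other 3), Supt3 stood at 4.31 TPM in iKO replicate 3 (3.63 to 3.67 TPM in the other 3), and Morf4l2 stood at 330.1 TPM in WT replicate 2 (342 to 344 TPM in the other 3).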

How the results depend on the processing

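Pseudocounts of 0.1 and 5, no filter on low values, a mean TPM of at least 5 and array quality weights left 3 members higher and 9 or 10 lower. Without single libraries 3 to 4 members were higher and 7 to 10 lower, 24 to 29 partner genes higher and 38 to 45 lower, and 3011 to 3221 of all genes higher and 4616 to 4852 lower. Members higher numbered 8 with trimmed mean factors, 6 with quantile normalization and 12 in the authors' deposited comparison; partner genes higher numbered 44 and 50 under the first and last of these. With the sex score as covariate 195 genes were higher and 228 lower, 0 members higher and 1 lower (the same at an unadjusted p under 0.05), and 1 partner gene higher and 0 lower by limma (12 and 18 at an unadjusted p under 0.05). Hdac3 turned to 0.0387 with that covariate (adjusted p = 0.876) and Mef2b to -0.84. In the authors' deposited comparison the sign turned for 8 members, 5 of them called in neither (Hdac2, Sirt3, Ep300, Brd1 and Brpf1), and among genes called there or here for Kat5 (0.18), Brd2 (0.14), Brd3 (0.08003), Ncor1 (0.0806) and Gse1 (0.0443). The cause was not tested. The median log2 fold change of all genes was -0.06 on TPM as deposited and 0.0013 with trimmed mean factors.

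The groups share replicate numbers, but over all genes tested same-numbered libraries did not deviate together (correlations of -0.0445 to 0.000694). Such correlations cannot exclude a pairing, and the fit reported above used none. With the replicate block 4 members were higher and 7 lower: Ep300 passed, and Kat6a, Kat7 and Kat8 did not.

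Differences of log2 ratios without single libraries were -0.76 to -0.65 for Hdac1/Hdac2, -0.37 to -0.30 for Hdac7/Hdac9, 0.83 to 1.43 for Kat2a/Kat2b (0.94 with 1 TPM added to both), -0.24 to -0.19 for Kat6a/Kat6b and -0.22 to -0.19 for Brd2/Brd3. No test was run on these. The number of libraries limits the precision.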
